A study of Mus musculus with 8 samples.

Results

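The 8 enzymes of the mevalonate arm of cholesterol synthesis (Acat2, Hmgcs1, Mvk, Pmvk, Mvd, Idi1, Fdps and Ggps1) were followed in whole mouse mammary glands. They are defined by their place in the pathway, and are 8 of the 51789 genes in the count table. The set was chosen with earlier results of these data known, so shares given beside all genes describe it and do not test it. All 8 had enough counts to be tested. The step between Hmgcs1 and Mvk was not analysed here.

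The glands came from female C57BL/6 mice with an intact immune system and were taken 6 weeks after small extracellular vesicles (sEVs) were injected into the abdominal mammary gland. The sEVs were released in normoxia (sEVNORM, 3 glands) or hypoxia (sEVHYP, 2 glands) by AT3 cells, a mouse mammary adenocarcinoma line that metastasizes. Control glands (sEVCTRL, 3 glands) received fresh culture medium that was processed like the vesicle preparations and held no tumor vesicles. PolyA RNA of whole glands was sequenced, and each library is called a gland here, although the labels do not say whether each is a separate animal. The libraries mix epithelium, fat, immune cells and any adjoining muscle, and fewer cells of a type cannot be told apart from less RNA per cell. The age of the mice was not given in the sources used here.

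The mevalonate pathway builds isoprenoid units from acetyl-CoA. Acat2 and Hmgcs1 join acetyl-CoA units in the cytosol, Mvk, Pmvk and Mvd phosphorylate and decarboxylate mevalonate to isopentenyl diphosphate, Idi1 isomerizes it, and Fdps and Ggps1 couple the units to farnesyl and geranylgeranyl diphosphate. Farnesyl diphosphate is the branch point: squalene and then cholesterol are made from it, and protein prenylation, dolichol and ubiquinone also draw on these lipids. The genes of the pathway are known targets of SREBP transcription factors, membrane-bound proteins that are released when sterols run low and that act on promoters together with NF-Y and Sp1.

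Promoter sequences were taken from RefSeq (GRCm38.p6), as windows from 250 bases before to 50 bases after each start. Of the 8 genes, 7 had a window, and Fdps had none. Letters of a sterol regulatory element (TCACNCCAC, searched on both strands) were found in 1 of the 7 windows, that of Hmgcs1, and in 1.24% of all 32851 mouse windows. The match lies on the plus strand at chr13:119690214-119690222 and begins at base -137 relative to the start. The NF-Y box (CCAAT on either strand) was present in 6 of the 7 windows, against 37.4% of all windows. Mvk held 5 such boxes and Hmgcs1 held 4, and 1.06% of all windows held at least 4. Ggps1 held 3, Idi1 and Mvd held 2 each, Pmvk held 1, and Acat2 held none. The GC box bound by Sp1 (GGGCGG) was present in 5 of the 7 windows, against 35.7% of all windows. The core of a hypoxia response element (ACGTG) was in 0 of the 7 windows and in 19.6% of all windows, and the E-box CACGTG, which contains those letters, was in 0 of 7 and in 7.15%. These are matches of letters in short windows and say nothing of whether a factor bound there.

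**Figure D1:**
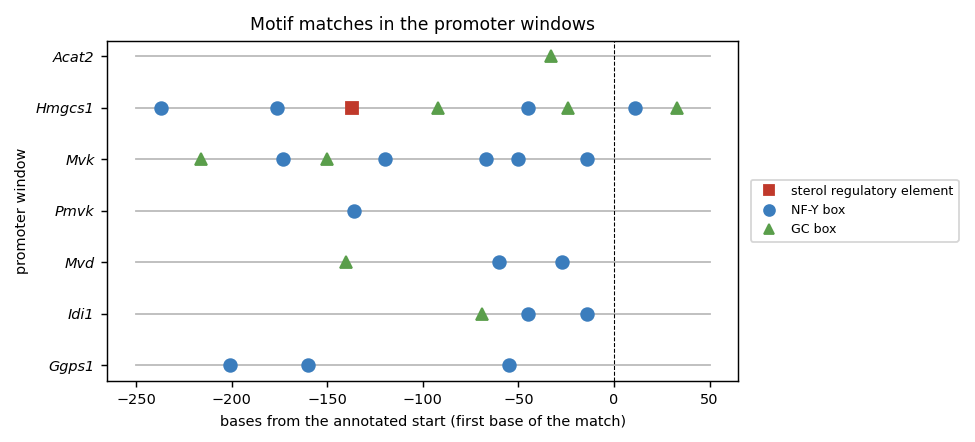
Position of each motif match in the promoter windows of 7 mevalonate genes, in bases from the RefSeq start (horizontal axis; dashed line at the start); squares are sterol regulatory element letters, circles NF-Y boxes and triangles GC boxes. Hmgcs1 carries the only square, and Mvk carries 5 circles.

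The stretches below are shown because Hmgcs1 and Idi1 are the members that passed the test, Mvk was high in the same glands, and Ggps1 is the member with the smallest difference between sEVHYP and sEVNORM. Capitals mark the NF-Y boxes (CCAAT, or ATTGG where the box is on the other strand) and, in Hmgcs1, the longer TCACCCCAC match. Each reads 5′ to 3′ along the gene's own strand. Hmgcs1 is given over the 250 bases before its start (chr13:119690101-119690350, plus strand). Its NF-Y box at base 11, after the start, lies outside this stretch. Mvk is given over the 208 bases between its start and that of its neighbour Mmab (chr5:114444061-114444268, plus strand). Ggps1 is given over 114 bases outside annotated exons (chr13:14063490-14063603, minus strand), which hold 1 of its 3 boxes. Idi1 is given as 17 bases around each of its 2 boxes (chr13:8885555-8885571 and chr13:8885586-8885602, plus strand), which lie upstream of the RefSeq start but inside an exon of GENCODE release M21.
Hmgcs1: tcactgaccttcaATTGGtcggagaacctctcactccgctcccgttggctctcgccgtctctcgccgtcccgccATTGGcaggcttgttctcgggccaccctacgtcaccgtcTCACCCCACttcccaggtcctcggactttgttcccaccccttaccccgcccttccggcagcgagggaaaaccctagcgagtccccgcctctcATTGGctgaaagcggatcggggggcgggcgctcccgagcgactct
Mvk: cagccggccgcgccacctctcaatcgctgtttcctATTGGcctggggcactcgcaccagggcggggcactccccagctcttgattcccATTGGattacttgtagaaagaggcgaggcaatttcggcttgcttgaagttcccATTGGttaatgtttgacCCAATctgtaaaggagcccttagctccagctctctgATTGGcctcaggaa
Ggps1: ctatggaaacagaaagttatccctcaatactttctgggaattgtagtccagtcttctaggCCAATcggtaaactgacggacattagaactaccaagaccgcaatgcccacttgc
Idi1, first box: cagctgATTGGcgagcc
Idi1, second box: ggtgccATTGGctggcg

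Total counts per library ranged from 18194996 to 24622569. Levels are given as CPM, which are counts scaled by library size and TMM factor, and as CPM per kilobase of exon where genes are compared with each other. Luminal epithelial markers summed to 345 to 616 CPM and white adipocyte markers to 5053 to 9811 CPM, so both tissues of the gland were present in every library. A difference is called here when the unadjusted P of edgeR's quasi-likelihood test is under 0.05, the threshold the study used; adjusted P values are over all 17858 genes tested. By edgeR no gene passed an adjusted P of 0.05 in any comparison, while 706 genes were under an unadjusted 0.05 for sEVHYP compared with sEVNORM, 438 for sEVHYP compared with sEVCTRL and 290 for sEVNORM compared with sEVCTRL. With DESeq2 on only the 2 groups compared, 83, 14 and 3 genes passed an adjusted P of 0.05.

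Per kilobase of exon, Idi1 was the most abundant of the 8 transcripts, with a mean over all glands of 25.5 CPM per kilobase. Ggps1 followed with 21.1, Acat2 with 19.7 and Hmgcs1 with 13.8 CPM per kilobase. Fdps (5.55), Pmvk (3.17), Mvd (1.34) and Mvk (1.22) were lower on the same scale. Within the sEVCTRL glands, the level of Idi1 was 22.3 ± 4.67, of Ggps1 19.4 ± 3.62 and of Acat2 19.4 ± 7.32 CPM per kilobase (SD, n = 3), so these neighbours did not differ beyond their spread. Hmgcs1 at 13 ± 0.819 CPM per kilobase lay within the spread of Acat2, and Pmvk at 3.46 ± 1.29 within that of Fdps at 5.53 ± 2.42 (SD, n = 3). Mvd at 1.35 ± 0.538 and Mvk at 1.10 ± 0.424 CPM per kilobase (SD, n = 3) also lay within each other's spread. The kinases and the decarboxylase in the middle of the pathway were therefore the rarest transcripts, with counts of 32 to 158 per library, and their values carry more counting error than those of Hmgcs1 or Idi1.

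Compared with sEVNORM, sEVHYP glands had higher levels of Hmgcs1 and Idi1, and all 8 fitted differences were above 0 on the log2 scale. The 2 genes are 2 of 8 past the threshold in that direction, against 2.25% of all genes tested, and 0 of 8 passed it in the other direction, against 1.7% of all genes. The fitted level was higher for 8 of 8 members and for 47% of all genes. The median log2 fold change of the 8 was 0.74, and that of all genes was -0.02. Every sEVHYP library was above every sEVNORM library for 5 of the 8 (Acat2, Hmgcs1, Mvk, Idi1 and Fdps), against 12.3% of all genes. With DESeq2 on only the 2 groups compared, which is the closest to the procedure the study describes, 4 of the 8 passed, against 2.61% of all genes. The additional genes were Acat2, with an unadjusted P of 0.0102, and Fdps, with 0.00161. In the edgeR fit of all 8 libraries the unadjusted P was 0.0564 for Fdps, 0.0623 for Acat2 and 0.0827 for Mvk, and every member had an adjusted P of 0.956 or above. An exact two-sided permutation test of 2 glands against 3 cannot go below 0.2, and 0.2 is what it gave for each of the 5 members whose groups did not overlap.

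Compared with sEVCTRL, sEVHYP glands again had higher Hmgcs1 and Idi1. These are 2 of 8 members, against 1.39% of all genes, while 0 of 8 passed in the other direction, against 1.06%. Fitted levels were higher for 8 of 8, against 47.5% of all genes, with a median log2 fold change of 0.43, and that of all genes was -0.02. Every sEVHYP library was above every sEVCTRL library for 3 of the 8 (Hmgcs1, Mvk and Idi1), against 6.7% of all genes. The comparisons with sEVNORM and with sEVCTRL share the sEVHYP glands and are not independent. Being called higher in both was seen for 2 of 8 members and 0.61% of all genes, and lying above all 6 other glands in both sEVHYP glands was seen for 3 of 8 members and 3.44% of all genes.

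Compared with sEVCTRL, sEVNORM glands showed no member past the threshold. That is 0 of 8 in each direction, against 0.89% of all genes higher and 0.734% lower. The fitted level was lower in sEVNORM for 7 of 8 members, against 50.2% of all genes. The exception was Ggps1 (log2 fold change 0.18, SE 0.16). The median of the 8 on the log2 scale was -0.25, and that of all genes was -0.00. It was -0.07 without sEVCTRL replicate 3, where Mvk (0.24), Mvd (0.10) and Ggps1 (0.04) were above 0. Without sEVCTRL replicate 2 it was -0.39, and Acat2 (-0.58) and Fdps (-0.69) were called lower. That fit called 1018 of 17701 genes in either direction, beside 290 of 17858 in the main fit. The member closest to the threshold was Hmgcs1, with a log2 fold change of -0.32 (SE 0.15) and an unadjusted P of 0.0619.

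**Figure D2:**
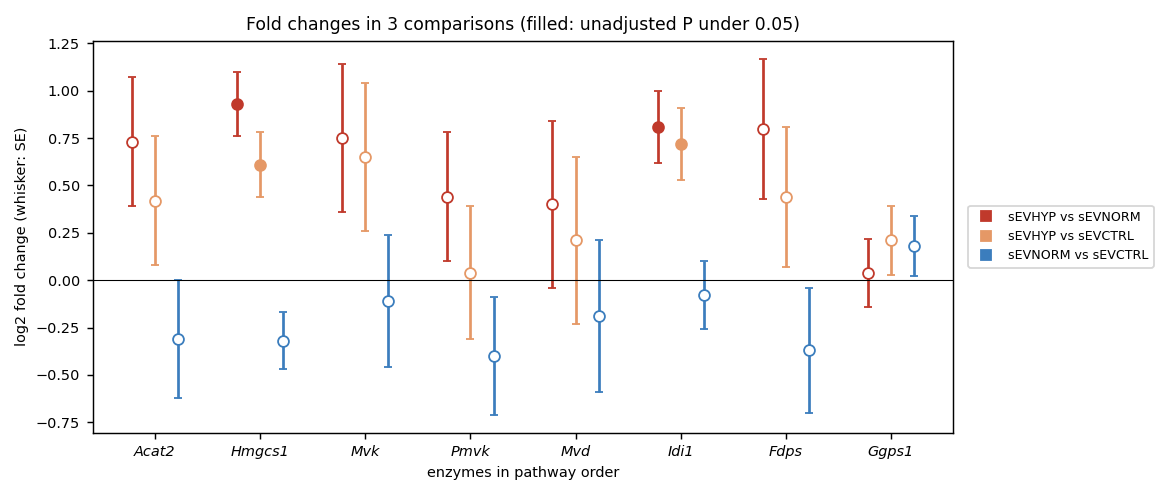
Log2 fold change of each enzyme (vertical axis; whiskers are SE) in pathway order, in 3 comparisons marked by color; filled circles have an unadjusted P under 0.05 in edgeR. Hmgcs1 and Idi1 are filled in both sEVHYP comparisons, and no sEVNORM circle is filled.

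Hmgcs1 (ENSMUSG00000093930, chr13:119690379-119708260, plus strand) encodes the cytosolic HMG-CoA synthase, which commits acetyl-CoA units to the pathway. In sEVCTRL glands it stood at 55.6, 61.6 and 62.5 CPM, in sEVNORM glands at 43.8, 57.2 and 43 CPM, and in sEVHYP glands at 92.6 and 90.5 CPM. Both sEVHYP glands were above all 6 others, and they differed from each other by a ratio of 1.02. Its log2 fold change was 0.93 compared with sEVNORM (SE 0.17, edgeR adjusted P = 0.956) and 0.61 compared with sEVCTRL (SE 0.17, adjusted P = 1). The unadjusted P values were 0.000309 and 0.00489, and by the former Hmgcs1 ranked 4 among all 17858 genes in the comparison with sEVNORM. With DESeq2 on only the 2 groups compared, its adjusted P against sEVNORM was 0.00369. The antisense gene model Gm48342 overlaps Hmgcs1 and was not analysed here.

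Idi1 (ENSMUSG00000058258, chr13:8885501-8892451, plus strand) encodes the isomerase that makes dimethylallyl diphosphate. Its level was 94.5, 78.5 and 61.7 CPM in sEVCTRL glands, 69.3, 80.8 and 71.4 CPM in sEVNORM glands, and 140 and 118 CPM in sEVHYP glands. As with Hmgcs1, both sEVHYP glands were above all others. Idi1 had a log2 fold change of 0.81 compared with sEVNORM (SE 0.19) and of 0.72 compared with sEVCTRL (SE 0.19), with unadjusted P values of 0.00247 and 0.00476 and an edgeR adjusted P of 1 in each. With DESeq2 on only the 2 groups compared, its adjusted P against sEVNORM was 0.00369. The processed pseudogene Gm13502 (chr2:53696121-53696804, minus strand) matches Idi1 transcripts at 100% identity over 684 bases and held 2896 counts over all libraries, beside 15032 for Idi1. Reads of the pair could be split between them by the authors' estimates, so the sum was tested too. The log2 fold change of the sum was 0.83 compared with sEVNORM and 0.76 compared with sEVCTRL, with unadjusted P values of 0.00373 and 0.00623. Gm48574, on the other strand at the start of Idi1, held 0 to 2 counts per library.

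Mvk (ENSMUSG00000041939, chr5:114444269-114460591, plus strand) encodes mevalonate kinase. Its level was 2.54, 2.05 and 4.21 CPM in sEVCTRL glands, 3.3, 1.82 and 3.03 CPM in sEVNORM glands, and 4.67 and 4.5 CPM in sEVHYP glands. Both sEVHYP glands were above all others, although the highest sEVCTRL gland came close. Compared with sEVNORM the log2 fold change was 0.75 (SE 0.39), and compared with sEVCTRL it was 0.65 (SE 0.39), neither of them past the threshold. Mvk passed it in 3 of 19 alternative fits in each comparison: with a replicate block or the white adipocyte covariate in both, with the luminal covariate against sEVNORM, and without sEVCTRL replicate 3 against sEVCTRL (log2 fold change 1.00). Mmab, an enzyme of vitamin B12 metabolism, starts 209 bases from Mvk on the other strand. Mmab was higher in sEVHYP than in sEVNORM, with a log2 fold change of 0.46 (SE 0.19, unadjusted P of 0.0422), while compared with sEVCTRL the value was 0.08 (SE 0.19).

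Acat2 (ENSMUSG00000023832, chr17:12942890-12960747, minus strand) encodes the cytosolic acetoacetyl-CoA thiolase, the entry to the pathway. Its level was 55.4, 28.5 and 64.3 CPM in sEVCTRL glands, 47.5, 34 and 38.2 CPM in sEVNORM glands, and 83.1 and 49 CPM in sEVHYP glands. The sEVHYP glands did not overlap sEVNORM but were on either side of the highest sEVCTRL gland. This gave a log2 fold change of 0.73 compared with sEVNORM (SE 0.34) and 0.42 compared with sEVCTRL (SE 0.34). Acat2 was not called in the edgeR fit of all 8 libraries, and it was called against sEVNORM with edgeR on only the 2 groups compared (unadjusted P of 0.0245). The neighbouring copy Acat3, which matches Acat2 at 97.7% identity over 1477 bases, held 1 to 15 counts per library. Tcp1, a chaperonin gene with 3163 to 4472 counts per library, has a transcript that matches Acat2 at 98.7% identity over 445 bases, so reads of that stretch could be split between them.

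Fdps (ENSMUSG00000059743, chr3:89093588-89101959, minus strand) encodes farnesyl diphosphate synthase. Its level was 28.5, 11.5 and 29.8 CPM in sEVCTRL glands, 17.5, 19.3 and 17.3 CPM in sEVNORM glands, and 38.5 and 24.5 CPM in sEVHYP glands. Fdps had the widest span of the 8, with the highest gland 3.34 times the lowest. The lowest was a control gland. The overlapping gene models Gm43738 and Gm22935 held 0 counts in every library. Its log2 fold change was 0.80 compared with sEVNORM (SE 0.37) and 0.44 compared with sEVCTRL (SE 0.37). Fdps was not called in the edgeR fit of all 8 libraries, and it was called against sEVNORM with edgeR on only the 2 groups compared (unadjusted P of 0.00727).

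Pmvk (ENSMUSG00000027952, chr3:89454541-89469013, plus strand) encodes phosphomevalonate kinase. Its level was 5.48, 3.97 and 8.32 CPM in sEVCTRL glands, 4.95, 3.9 and 4.64 CPM in sEVNORM glands, and 7.24 and 4.92 CPM in sEVHYP glands. The groups overlapped, and a control gland was the highest. Pmvk had a log2 fold change of 0.44 compared with sEVNORM (SE 0.34) and 0.04 compared with sEVCTRL (SE 0.35), and it was not called in any fit of these comparisons.

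Mvd (ENSMUSG00000006517, chr8:122433601-122443422, minus strand) encodes mevalonate diphosphate decarboxylase. Its level was 2.64, 1.46 and 3.45 CPM in sEVCTRL glands, 2.21, 2.57 and 1.8 CPM in sEVNORM glands, and 3.76 and 2.03 CPM in sEVHYP glands. The sEVHYP glands were the highest and the sixth highest of the 8. Against sEVNORM the log2 fold change was 0.40 and against sEVCTRL 0.21 (SE 0.44 for each), not called in any fit. The long gene model Gm20388 covers Mvd on the other strand and held 257 to 602 counts per library. The library kit keeps strand, but whether the authors' counting used it is not given in the sources used here.

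Ggps1 (ENSMUSG00000021302, chr13:14050659-14063488, minus strand) encodes geranylgeranyl diphosphate synthase, which leads to protein prenylation and away from sterols. Its level was 94.9, 107 and 72.9 CPM in sEVCTRL glands, 95, 109 and 106 CPM in sEVNORM glands, and 103 and 109 CPM in sEVHYP glands. The groups overlapped fully, and the highest gland was 1.5 times the lowest, the narrowest span of the 8. The log2 fold change was 0.04 compared with sEVNORM (SE 0.18) and 0.21 compared with sEVCTRL (SE 0.18), not called in any fit. Its SE was close to that of Hmgcs1 and Idi1. Arid4b, which overlaps the 5′ end of Ggps1 on the other strand, had a log2 fold change of -0.30 in sEVHYP compared with sEVNORM (SE 0.24).

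**Figure D3:**
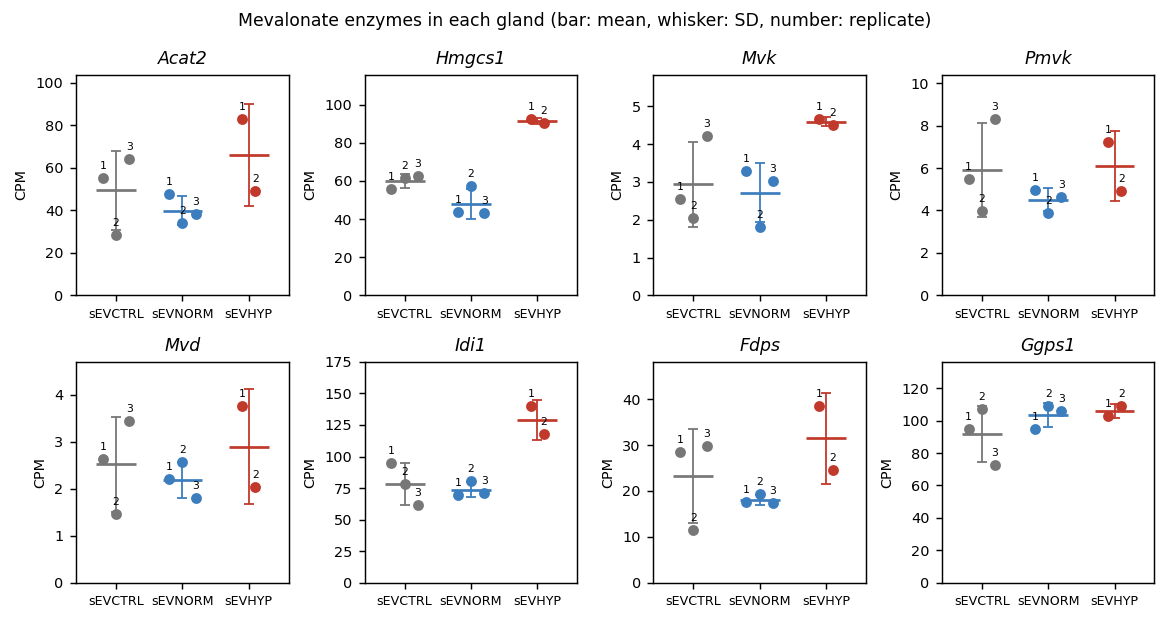
CPM of each enzyme (vertical axes, from 0) in each of the 8 glands; points carry the replicate number, bars are group means and whiskers SD. For Hmgcs1, Mvk and Idi1 both sEVHYP glands lie above the other 6, while for Acat2, Pmvk, Mvd and Fdps sEVHYP replicate 2 lies among the control glands.

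The members did not all vary in the same way between glands. Replicate 1 of sEVHYP was the highest of the 8 glands for 6 of 8 members, against 7.67% of all genes, and sEVCTRL replicate 2 was the lowest for 3 of 8, against 14.8% of all genes. The ratio of sEVHYP replicate 1 to replicate 2 was 1.85 for Mvd, 1.7 for Acat2, 1.57 for Fdps and 1.47 for Pmvk. For Idi1 it was 1.19, for Mvk 1.04, for Hmgcs1 1.02 and for Ggps1 0.939. Profiles were compared as the root mean square difference of log2 CPM after each gene was centered on its own mean over the 8 glands. The closest pair was Acat2 and Fdps (0.18), Hmgcs1 and Idi1 differed by 0.24, and the farthest pair was Fdps and Ggps1 (0.61). The summed level of the 8 members was 340, 294 and 307 CPM in sEVCTRL glands, 284, 309 and 285 CPM in sEVNORM glands, and 473 and 403 CPM in sEVHYP glands. Most of that sum is Hmgcs1, Idi1, Acat2 and Ggps1.

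Leaving out 1 sEVHYP gland changed some members far more than others. Without sEVHYP replicate 1, the median log2 fold change of the 8 was 0.37 compared with sEVNORM and 0.17 compared with sEVCTRL, and the latter was 0.24 without sEVCTRL replicate 2, in fits that take a lone remaining gland to vary like the other groups. There were 19 alternative fits for each comparison. In every one that kept both sEVHYP glands, Hmgcs1 and Idi1 stayed under an unadjusted P of 0.05. The log2 fold change compared with sEVNORM ranged from 0.86 to 1.09 for Hmgcs1 and from 0.68 to 0.95 for Idi1, whereas it ranged from 0.30 to 1.05 for Acat2, from 0.44 to 1.09 for Fdps and from -0.11 to 0.77 for Mvd. For Acat2 and Fdps, 7 of the 19 fits against sEVNORM gave an unadjusted P under 0.05.

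**Figure D4:**
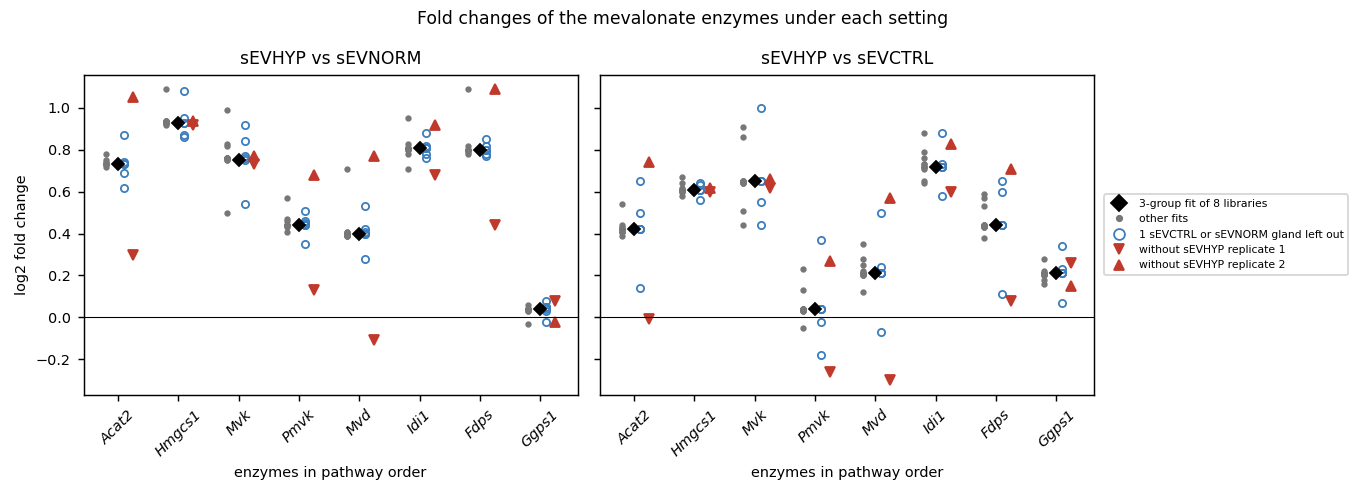
Log2 fold change of each enzyme (vertical axis) compared with sEVNORM (left) and sEVCTRL (right) in the fit of all 8 libraries (diamonds), with 1 gland left out (open circles and triangles) or with other models, filters and covariates (dots). Hmgcs1 and Idi1 move little when a sEVHYP gland is left out, while Acat2 falls to 0.30 and Mvd to -0.11 compared with sEVNORM without sEVHYP replicate 1.

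The enzymes that take farnesyl diphosphate on to cholesterol were compared with the mevalonate arm as the next part of the route. Compared with sEVNORM, 8 of the 12 listed genes that act after farnesyl diphosphate were called higher in sEVHYP, against 2.25% of all genes tested. Of the same 12, 0 were called lower, against 1.7% of all genes. Their median log2 fold change was 0.66, beside 0.74 for the mevalonate arm. Compared with sEVCTRL, 6 of 12 were called higher, against 1.39% of all genes, and the median of the 12 was 0.48. In sEVNORM compared with sEVCTRL 2 of 12 were called lower, Fdft1 and Sc5d, against 0.734% of all genes. The median of the 12 was -0.14. The count called lower was 1, Sc5d alone, without sEVCTRL replicate 3, without any one sEVNORM gland and with the muscle or white adipocyte covariate. In those fits 222 to 422 of all genes were called in either direction, beside 290 in the main fit. Without sEVCTRL replicate 2 the count was 3, with a median of -0.27, in a fit that called 1018 of 17701 genes. The 3 genes of this list with the highest log2 fold change compared with sEVNORM were Sc5d (1.08, SE 0.20), a sterol desaturase, Cyp51 (1.00, SE 0.27), the lanosterol demethylase, and Hsd17b7 (0.91, SE 0.21), a sterol ketoreductase. Without sEVHYP replicate 1 the medians fell to 0.49 compared with sEVNORM and 0.21 compared with sEVCTRL. The log2 fold change of Cyp51 compared with sEVNORM fell to 0.69. Without sEVHYP replicate 2 the medians were 0.87 and 0.68, so the difference was larger in sEVHYP replicate 1. The counts of 8 of 12 and 6 of 12 lean on that gland. Values without a sEVHYP replicate rest on 1 sEVHYP gland, so counts of calls are not given for them. The NF-Y box and the GC box were each present in all 9 of the 12 genes that had a promoter window. The sterol regulatory element letters were present in 0 of 9. The core of a hypoxia response element was present in 3 of 9 (Dhcr7, Hsd17b7 and Sc5d), against 19.6% of all windows. The E-box CACGTG was present in the same 3, against 7.15% of all windows. A gene with several windows was counted if any of them held the letters, while the shares over all windows count single windows. The counts of genes and these shares are therefore not like measures.

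**Figure D5:**
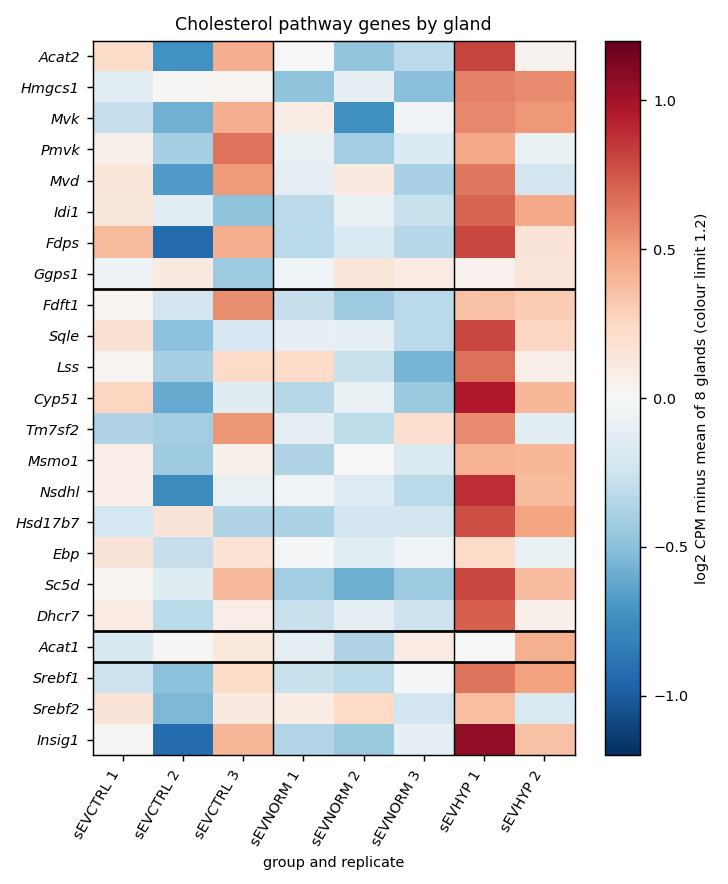
Log2 CPM of cholesterol pathway genes minus each gene's mean over the 8 glands (color; the scale ends at 1.2 in each direction), with glands in columns and genes in rows; horizontal lines separate the mevalonate arm, the squalene to cholesterol enzymes, Acat1, and 3 SREBP regulators. The sEVHYP replicate 1 column is above the mean for every gene shown in the first 2 blocks, and both sEVHYP columns are above it for 6 of the 8 members, all but Pmvk and Mvd.

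Genes that spend farnesyl and geranylgeranyl diphosphate outside sterol synthesis were compared in the same way. Of 13 such genes (prenyltransferases such as Fnta and Pggt1b, CAAX processing enzymes such as Icmt, and dolichol and ubiquinone synthesis genes such as Dhdds and Pdss1), 0 were called in any of the 3 comparisons. Over all genes tested, 2.25% were called higher and 1.7% lower in sEVHYP compared with sEVNORM. The shares were 1.39% and 1.06% for sEVHYP compared with sEVCTRL, and 0.89% and 0.734% for sEVNORM compared with sEVCTRL. A count of 0 of 13 is close to these shares and does not set the list apart. The median log2 fold change of the 13 was 0.04 compared with sEVNORM and -0.09 compared with sEVCTRL. Values compared with sEVNORM lay between -0.10 and 0.44, and the highest was that of Pdss1 (SE 0.23).

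Acat1, the mitochondrial thiolase related to Acat2, had a log2 fold change of 0.34 compared with sEVNORM (SE 0.20) and 0.24 compared with sEVCTRL (SE 0.20), and it was not called. Bdh1 and Oxct1, which act in ketone body metabolism, were not called in either comparison, with log2 fold changes of -0.04 and 0.22 compared with sEVNORM.

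Transcripts of 2 genes that serve the supply of cytosolic acetyl-CoA were high in 1 sEVHYP gland. Acly, which splits citrate to acetyl-CoA, stood at 1554 and 363 CPM in the sEVHYP glands, beside 146 to 512 CPM in the sEVCTRL glands and 250 to 456 CPM in the sEVNORM glands. Its log2 fold change compared with sEVNORM was 1.56 (SE 0.62), and 0.17 without sEVHYP replicate 1. The citrate carrier Slc25a1 stood at 427 and 140 CPM in sEVHYP glands and had a log2 fold change of 1.14 (SE 0.50), and 0.13 without that gland. The call against sEVNORM was lost in 6 of 19 alternative fits for Acly and in 8 of 19 for Slc25a1.

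Among 7 genes of SREBP control, 2 were called higher in sEVHYP than in sEVNORM, against 2.25% of all genes tested. Srebf1, which encodes SREBP-1, stood at 38.5, 32.6 and 53.7 CPM in sEVCTRL glands, 38.1, 36.6 and 45.4 CPM in sEVNORM glands, and 71.6 and 63.9 CPM in sEVHYP glands. Both sEVHYP glands were above the other 6, and the log2 fold change was 0.76 compared with sEVNORM (SE 0.22) and 0.70 compared with sEVCTRL, where the call was lost without sEVHYP replicate 1. Insig1, an SREBP target that retains the SREBP complex in the endoplasmic reticulum, had a log2 fold change of 1.05 compared with sEVNORM (SE 0.35), and 0.65 without sEVHYP replicate 1, where it was no longer called. Srebf2, which encodes the SREBP best known for cholesterol genes, had a log2 fold change of 0.07 (SE 0.26).

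Among the 10 genes with a profile over the 8 glands most like the median profile of the members were Rfng, Mrpl12, Tecr, Tagln2, Taldo1, Parm1, Mlx, Cisd3 and Pdha1. The root mean square differences of the 10 from it were 0.11 to 0.14, and the median over the 17850 genes compared was 0.46. Of the 12 squalene to cholesterol genes, 10 were within the closest 5% of genes. So were Srebf1 and Srebf2, and Rce1 and Icmt of the 13 genes that use these diphosphates outside sterol synthesis. The median profile did not describe all members alike. Pmvk (0.17), Acat2 (0.18), Mvd (0.18) and Fdps (0.21) were close to it, while Mvk (0.31), Hmgcs1 (0.32), Idi1 (0.37) and Ggps1 (0.46) were farther. The median profile of the members was 0.62 and 0.15 in the sEVHYP glands, 0.10, -0.48 and 0.43 in the sEVCTRL glands and -0.09, -0.14 and -0.29 in the sEVNORM glands, on the log2 scale relative to each gene's mean.

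Markers of other tissues also differed between glands. The 8 skeletal muscle markers, all detected, summed to 4174 and 11584 CPM in the sEVHYP glands, 619 to 7502 CPM in the sEVCTRL glands and 10.2 to 2744 CPM in the sEVNORM glands, so that sEVHYP and sEVNORM did not overlap. With the mean of these markers as a covariate, the median log2 fold change of the 8 enzymes was 0.73 compared with sEVNORM and 0.47 compared with sEVCTRL, and Hmgcs1 and Idi1 stayed called. Compared with sEVNORM, Mvk fell from 0.75 to 0.50, while Mvd rose from 0.40 to 0.71 and Fdps from 0.80 to 1.09. Since muscle markers and group go together in these glands, this fit cannot tell muscle content apart from treatment. The 6 brown adipocyte markers summed to 46 and 69.1 CPM in sEVHYP glands, 27.3 to 45.7 CPM in sEVCTRL glands and 27.8 to 37 CPM in sEVNORM glands, and their part in the result was not tested. The highest of these sums were in both sEVHYP glands and sEVCTRL replicate 2, which also held the most muscle markers. A difference in brown fat therefore cannot be told apart from one in muscle. White adipocyte (5331 and 8684 CPM in sEVHYP glands), luminal, macrophage, endothelial, B cell, sebaceous, epidermal and proliferation markers overlapped between sEVHYP and sEVNORM glands. Basal epithelial markers summed to 211 and 228 CPM in sEVHYP glands, 191 to 200 CPM in sEVNORM glands and 142 to 233 CPM in sEVCTRL glands, and their part in the result was not tested. With white adipocyte or luminal markers as the covariate, the median compared with sEVNORM was 0.76 in each case.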

How the data were processed

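Whole mammary glands of mice were measured by RNA sequencing (Lexogen Sense mRNA-Seq V2 libraries) in 8 libraries, grouped by the sample labels. The study's text gives the sEV names, the week of harvest and 2 to 3 animals per group. Whether each library is a separate animal is not stated in the labels, so P values measure the spread between these libraries. The authors aligned reads with STAR to mm10 (GRCm38) and estimated counts per Ensembl gene with RSEM 1.2.12; the deposited table holds these counts as whole numbers, not normalized. How RSEM's estimates were rounded, and whether strand was used, is not given in the sources used here.

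Of 51789 genes, 51596 were given a symbol and a position from GENCODE release M21, and 0.0389% of counts fell in genes without one. Genes with enough counts (edgeR's filterByExpr, minimum count 10) were tested in R 4.3.3 with edgeR 4.0.16 (TMM factors 0.975 to 1.02, two-sided quasi-likelihood F-test, 1 model of 3 groups, 5 residual and 4.08 prior degrees of freedom), with Benjamini-Hochberg adjustment over all 17858 genes. The common biological coefficient of variation was 0.297. Intervals and SE cover the spread between libraries, and counting error adds most for genes with few counts. Log2 CPM used a prior count of 2. Single values were also compared with an exact permutation test over glands. The procedure was tested on simulated data. Similar transcripts were searched at 95% identity over at least 200 bases.

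The members and the gene lists were chosen with earlier results of these data known. The text names the 8 members, up to 3 genes of each other list with the highest absolute log2 fold change among those called in sEVHYP compared with sEVNORM, close copies, the 10 genes with the most similar profile, and genes that overlap a member or start within 1000 bases of it on the other strand. Genes named as examples of a list or as its extreme were named after their values were seen. Alternatives were DESeq2 1.42.0 on 8 libraries or on 2 groups, DESeq2 size factors, edgeR on 2 groups, no filter or at least 10 counts in every library, a replicate block, marker covariates and each library left out; counting Idi1 with Gm13502 was added after the data were seen. Some genes that these rules name are not reported here.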

Additional observations from a re-analysis of the deposited data

How the results depend on the processing

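Hmgcs1 and Idi1 stayed past an unadjusted P of 0.05 in both sEVHYP comparisons under each alternative that kept both sEVHYP glands. No member that was called changed sign under any of the 19 alternatives. For sEVHYP compared with sEVNORM the number of members called was 2, and it was 4 with DESeq2 on 8 libraries, DESeq2 on 2 groups, edgeR on 2 groups and no filter on low counts (Acat2, Hmgcs1, Idi1 and Fdps in each). It was 3 with the skeletal muscle covariate, which added Fdps, and 3 with the white adipocyte or luminal covariate, which added Mvk. For sEVHYP compared with sEVCTRL it was 2, and 3, with Mvk added, under the white adipocyte covariate or without sEVCTRL replicate 3. Against sEVNORM, leaving out 1 sEVCTRL or sEVNORM library gave 2 calls, or 4 without sEVCTRL replicate 2. The median log2 fold change, 0.74, ranged from 0.37 (without sEVHYP replicate 1) to 0.85 when a library was left out, and that compared with sEVCTRL, 0.43, ranged from 0.17 (without sEVHYP replicate 1) to 0.64; without sEVCTRL replicate 2 it was 0.24. The median for sEVNORM compared with sEVCTRL, -0.25, ranged from -0.39 (without sEVCTRL replicate 2) to -0.07 (without sEVCTRL replicate 3). For sEVNORM compared with sEVCTRL the number called was 0, and it was 1 (Hmgcs1) with the skeletal muscle or the white adipocyte covariate and 0 to 2 with 1 library left out. The 2 were Acat2 and Fdps without sEVCTRL replicate 2, and Hmgcs1 was called without sEVCTRL replicate 1 or sEVNORM replicate 2. Over all genes, the main fit of this comparison called 290 of 17858. The fits called 1018 of 17701 without sEVCTRL replicate 2, 568 of 17774 without sEVCTRL replicate 1 and 222 of 17672 without sEVNORM replicate 2. The cause of these shifts was not tested, except that a fit of 2 groups or without a library uses fewer samples. The number of genes under an unadjusted P of 0.05 over all genes in sEVHYP compared with sEVNORM was 706, and 1195 with DESeq2 on 2 groups, 1056 with edgeR on 2 groups, 1102 without a filter, and 1105 and 1106 with the luminal and white adipocyte covariates. Adding Gm13502 to Idi1 changed no call.

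The replicate numbers were not taken to pair the libraries, since not every same-number correlation was over 0.1: the correlations of their deviations were -0.285, -0.416 and -0.0131 between sEVCTRL and sEVNORM, 0.369 and 0.337 between sEVCTRL and sEVHYP, and -0.134 and -0.307 between sEVNORM and sEVHYP. The deviations of the 2 sEVHYP libraries are equal and opposite, so the pairs with sEVHYP are not independent. With the replicate number as a block, 4 members were called in sEVHYP compared with sEVNORM (Acat2, Hmgcs1, Mvk and Idi1), 3 in sEVHYP compared with sEVCTRL (Hmgcs1, Mvk and Idi1) and 0 in sEVNORM compared with sEVCTRL. Compared with sEVNORM, the SE on the log2 scale was 0.34 to 0.44 for Mvk, Pmvk and Mvd, which had 32 to 158 counts per library, and 0.34 and 0.37 for Acat2 and Fdps, which had more, so counting error and spread between glands were not separated.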

Other observations

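Some close relatives of the members had few counts in these glands. No counts were available for Gm5630, which matches Ggps1 at 97.2% identity over 903 bases. Idi2, the second isopentenyl diphosphate isomerase, held 1 to 12 counts per library, and the Fdps pseudogenes Gm3571 and Gm5873 held 0 to 12 and 1 to 11 counts, beside 253 to 840 counts for Fdps. Counts of Gm13502, the Idi1 pseudogene, were higher in sEVHYP than in sEVNORM, with a log2 fold change of 0.93 (SE 0.38) and an unadjusted P of 0.0368, and at 29.5 and 24 CPM both sEVHYP glands were above the other 6, which held 6.73 to 17.8 CPM. These counts may include reads of Idi1, so they are not separate from the Idi1 result.

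The control gland with the lowest Acat2 and Fdps, sEVCTRL replicate 2, held 7502 CPM of skeletal muscle markers, and sEVHYP replicate 2 held 11584 CPM. Within the 3 sEVCTRL glands Ggps1 and Fdps ran in opposite order, with Ggps1 at 107 CPM in the gland where Fdps was at 11.5 CPM. These are single glands, and no test was made of them.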
